A study of Mus musculus with 6 samples.

Results

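H19, Meg3 and Rasgrf1 belong to the few mouse imprinted loci whose control region is methylated on the paternally inherited allele. The cytosines described here are those that any library listed inside 4 windows of the mouse build mm9. One window holds the H19 gene and its upstream imprint control region (chr7:149761000-149769000). A pair covers the Dlk1-Meg3 domain, with the intergenic differentially methylated region (chr12:110765000-110770000) and the Meg3 promoter (chr12:110777000-110782000). The fourth is the differentially methylated region upstream of Rasgrf1 (chr9:89767000-89778000). The rule finds 4 cytosines among the 750119 that had a level in any library: 3 in the H19 window and 1 in the Rasgrf1 window. Both Dlk1-Meg3 windows held 0 listed cytosines, so no level is given for Meg3 inside its windows.

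The levels come from reduced representation bisulfite sequencing (RRBS) of E14 mouse embryonic stem cells, which cuts DNA at CCGG with MspI and reads the cytosines near the cut. There were 6 libraries, 1 per group. Cells carried short hairpin RNAs (shRNAs) against Dnmt1, against Dnmt3a, against Dnmt3b, against Dnmt3a and Dnmt3b together, against Tet1 and Tet2 together, or a control shRNA. The treatment label names Dnmt1 where that sample's title has Dnmt1a. All groups share the cell line, and whether a library comes from 1 clone or a pool of cells is not given in the sources used here. DNMT1 copies methylation to newly replicated DNA, DNMT3A and DNMT3B set it de novo, and TET1 and TET2 oxidise 5-methylcytosine. Only DNA was measured, so neither the depletion of the targets nor the cell type could be checked. The files give levels without read counts, so depth is unknown. With 1 library per group, every difference is between a pair of libraries and has no test and no replicate error.

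An imprint is a methylation mark laid down in one parent's germ cells and kept on that parent's allele after fertilisation. The H19 control region insulates Igf2 from shared enhancers on the maternal allele through the protein CTCF; on the paternal allele its methylation blocks CTCF binding, so that Igf2 is expressed and H19, a long noncoding RNA, is silent. The intergenic region between Dlk1 and Meg3 likewise controls which allele expresses the noncoding RNA Meg3 and which the Notch-related protein DLK1. Rasgrf1 encodes an exchange factor for RAS and is expressed from the paternal allele in neonatal mouse brain. An allele-specific mark that is intact would read as an intermediate level in a mixture of both alleles.

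Each file gives a cytosine's surroundings as 5 bases of the plus strand, with the measured base pair in the middle. The H19 window held a pair of plus-strand cytosines, 22 bp apart, near its low end: position 149761700, with the context TCCGG, and position 149761722, with ATCGA. H19 is transcribed towards lower coordinates, so the window's remaining cytosine, at 149767292 on the minus strand with the context CCGGA, lies 5.57 kb upstream of the pair, on the side of the control region. The Rasgrf1 cytosine lies on the minus strand at 89775601, 8.60 kb into its 11.0 kb window, with the context CCGGC. Of the 4, 3 sit in an MspI site, against 33.0% of all listed cytosines. No annotation of mm9 was used here, so exons and the exact borders of the control regions were not placed.

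For the Meg3 promoter, where the libraries list nothing, the sequence is shown because MspI sites set where RRBS can read. The first of 2 RefSeq promoters of Meg3 (GRCm38.p6, chr12:109540746-109541045, plus strand, 300 bases around the start of transcription) is printed 5′ to 3′, with the MspI site CCGG in capitals.
Meg3 promoter: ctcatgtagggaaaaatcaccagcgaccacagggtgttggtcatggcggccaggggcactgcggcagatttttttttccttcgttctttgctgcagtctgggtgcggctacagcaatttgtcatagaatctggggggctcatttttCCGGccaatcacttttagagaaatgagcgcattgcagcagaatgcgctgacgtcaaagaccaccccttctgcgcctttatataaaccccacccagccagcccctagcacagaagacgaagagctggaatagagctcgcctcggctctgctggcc
It holds 13 CpGs and 1 CCGG, which reads the same on both strands. The second Meg3 promoter (chr12:109545148-109545447) holds 1 CpG and 0 CCGG. At least 1 CCGG is present in 52.8% of the 32851 RefSeq promoter sequences, most of them 300 bases long, and at least 2 in 32.6%. RRBS needs a pair of cuts close together, and how far the nearest further site lies was not examined. Stretches without listed cytosines are common in these libraries: of 482882 autosomal bins of 5 kb, 78.9% held none. These bins cover all sequence between the first and last listed cytosine of each autosome. The share is therefore no like-for-like background for a promoter or a differentially methylated region. The promoter's position was not carried over to mm9. Of the 3 genes, Meg3 and Rasgrf1 have promoter sequences in the RefSeq table used here.

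The H19 pair was almost fully methylated in control cells and in 4 knockdowns, and read far lower in the Dnmt1 library. Position 149761700 read 23.8% after Dnmt1 knockdown, 94.8% after Dnmt3a, 95.7% after Dnmt3b, 94.5% after Dnmt3a and Dnmt3b together and 94.5% after Tet1 and Tet2 knockdown, against 94.8% in control. Position 149761722 read 15.9% after Dnmt1 knockdown, 92.0% after Dnmt3a, 89.6% after Dnmt3b, 90.7% after the double Dnmt3 knockdown and 89.2% after Tet1 and Tet2 knockdown, against 91.7% in control. The Dnmt1 library stood apart at both cytosines, and the other 5 libraries spanned 1.2 points at the first and 2.8 points at the second. Outside the Dnmt1 library these levels are high, not intermediate. The pair lies near the window's low end, away from the control region side, and the borders of that region were not placed. Levels at the pair therefore cannot show whether the H19 imprint is intact.

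**Figure D1:**
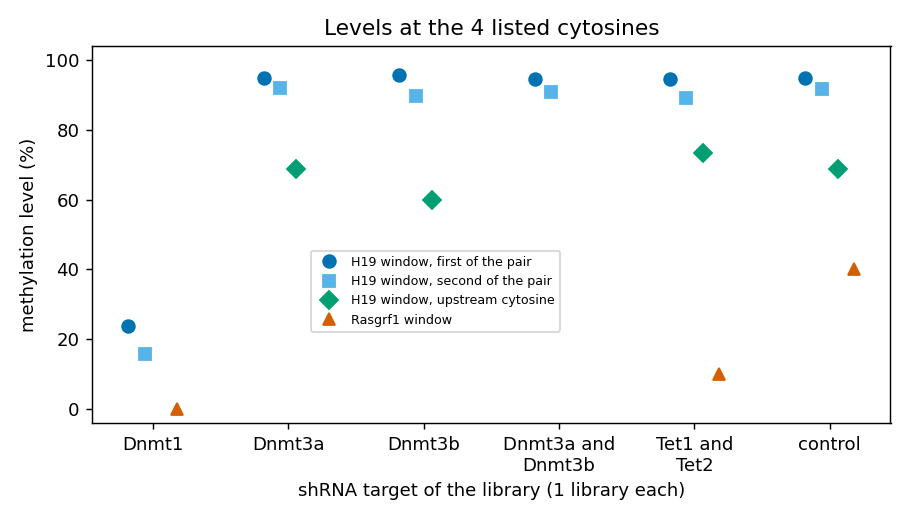
Methylation level (%, vertical axis) at each of the 4 listed cytosines in the 6 libraries (horizontal axis, 1 library each, control at the right). Each point is 1 cytosine in 1 library, and a missing point was not listed; the H19 pair sits at 89.2% or above except in the Dnmt1 library, where it reads 23.8% and 15.9%.

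The pair averaged 19.9% ± 5.59 in the Dnmt1 library and 93.2% ± 2.19 in control (SD over 2 cytosines, which lie close enough to share reads and are not replicates). The difference was -73.4 ± 3.39 percentage points, and the pair kept 25.1% and 17.3% of the control level. A difference of at least 20 points was counted as a call: 2 of 2 cytosines were lower, where 31.8% of the 369208 autosomal cytosines listed in all 6 libraries were lower by that much. Most of that background is unmethylated sequence that cannot fall. Among the 59269 autosomal cytosines whose median over the 6 libraries was above 80% (high cytosines), 99.0% were lower by at least 20 points. Their median difference was -70.5 points, and the middle 80% of them ran from -81.8 to -54.4 points. The H19 pair, at -71.0 and -75.8 points, lay inside that range, so its loss was of the size seen at high cytosines across the autosomes.

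The Dnmt3a knockdown addressed the share of methylation that this de novo enzyme sustains, and the H19 pair read there as in control. The pair averaged 93.4% ± 1.98 after Dnmt3a knockdown and 93.2% ± 2.19 in control, a difference of 0.15 ± 0.21 points. None of the 2 cytosines was called, where 5.87% of all cytosines and 3.57% of high ones were lower by at least 20 points. High cytosines had a median difference of -5.2 points, with the middle 80% between -14.6 and 2.4. Both H19 cytosines, at 0.0 and 0.3 points, lay above the third quartile of high cytosines (-1.2 points) and inside the middle 80%. As a yardstick, the plus and minus strands of 2639 high CpGs in control, which are read from different molecules, differed by an SD of 9.30 points. The distance of the pair from that quartile is smaller than this strand SD. The pair's own measurement error is unknown, because its depth is.

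The double Dnmt3 knockdown averaged 92.6% ± 2.69 over the pair and control 93.2% ± 2.19, a difference of -0.65 ± 0.49 points. High cytosines had a median difference of -3.3 points. Set against Dnmt3a alone, the double knockdown was -0.80 ± 0.71 points apart at the pair, while high cytosines were 1.9 points higher at the median. After Dnmt3b knockdown the pair averaged 92.7% ± 4.31, against 93.2% ± 2.19 in control, and differed by -0.60 ± 2.12 points. All these differences are smaller than the strand SD. No cytosine of the pair was called in any of these comparisons. Among all cytosines, 3.45% were lower for the double knockdown and 0.464% for Dnmt3b, with 0.334% for the double against Dnmt3a. Shares of 0.127%, 0.838% and 1.23% were higher, in that order. Among high cytosines 1.54%, 0.344% and 0.645% were lower, in the same order. The pair read too high in control and in the Dnmt3a library to rise by 20 points, so only lower calls were possible.

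Knockdown of Tet1 and Tet2 asked what changes when oxidation is reduced. The pair averaged 91.8% ± 3.75 in that library and 93.2% ± 2.19 in control, or -1.40 ± 1.56 points. High cytosines were 0.9 points higher at the median, with the middle 80% from -5.9 to 7.8 points, a range that holds both H19 cytosines (-0.3 and -2.5 points). None of the pair was called, and the background was 1.53% higher and 0.358% lower. Both cytosines read too high in control (94.8% and 91.7%) to rise by 20 points, so only a lower call was possible. Among high cytosines 0.420% were lower by that much.

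**Figure D2:**
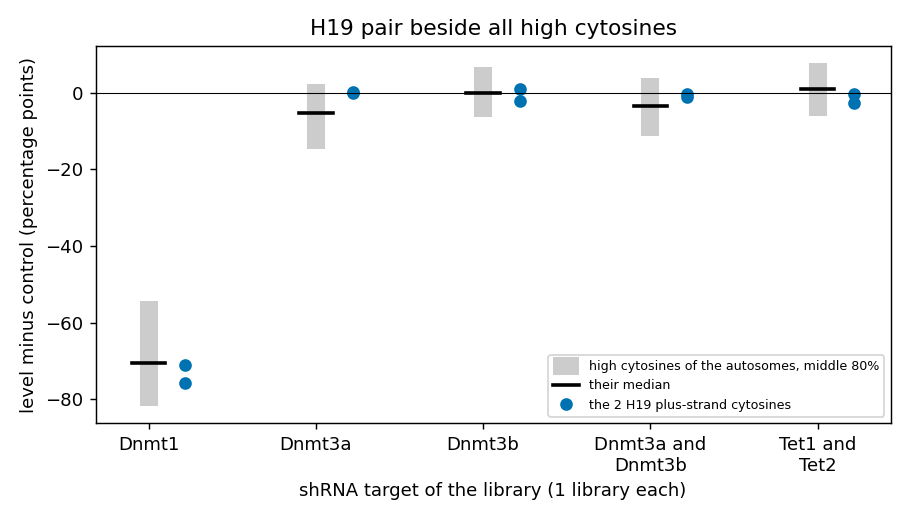
Difference from control (percentage points, vertical axis) in each knockdown (horizontal axis, 1 library each). Blue points are the 2 H19 plus-strand cytosines, grey bars the middle 80% of the 59269 high autosomal cytosines and black lines their median; the pair lies within the bar in all 5 knockdowns.

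The cytosine on the control region side of the H19 window gave intermediate levels in every library that listed it. Position 149767292 read 68.8% after Dnmt3a knockdown, 60% after Dnmt3b knockdown and 73.3% after Tet1 and Tet2 knockdown, against 68.8% in control. It was not listed in the Dnmt1 library or in the double Dnmt3 library, so the loss seen at the pair has no counterpart value here. The levels lay below those of the pair in the same 4 libraries. Differences from control were 0.0 points for Dnmt3a, -8.8 for Dnmt3b and 4.5 for Tet1 and Tet2, all smaller than the strand SD of 16.9 points at 2500 intermediate CpGs of control. None was called, where 7.99% of cytosines listed in both the Dnmt3a and control libraries were lower by at least 20 points. For Dnmt3b and for Tet1 and Tet2 1.22% and 0.889% were lower, and 1.74% and 2.58% higher. A single cytosine cannot show whether the whole region held its imprint.

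The Rasgrf1 cytosine had the lowest levels of the 4. Position 89775601 read 0.0% after Dnmt1 knockdown and 10% after Tet1 and Tet2 knockdown, against 40% in control. The other 3 knockdown libraries did not list it. The differences from control were -40 points in the Dnmt1 library and -30 points in the Tet1 and Tet2 library. Both pass 20 points, where 31.1% of the 409044 cytosines listed in the Dnmt1 and control libraries and 0.889% of the 503842 listed in the Tet1 and Tet2 and control libraries were lower by that much. The Tet1 and Tet2 difference runs against the general direction, since 2.58% of those cytosines were higher. It rests on 1 cytosine of unknown depth, and in that library plus and minus strand readings of intermediate CpGs had a strand SD of 17.8 points.

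The nearest listed cytosines outside the windows were chosen after their values were seen. On the Rasgrf1 side, a pair of plus-strand cytosines lay 2.62 and 2.66 kb past the window's high end (positions 89780620 and 89780659). Position 89780620 read 24.4% after Dnmt1 knockdown, 64.7% after Dnmt3a, 84.5% after Dnmt3b, 81.5% after the double Dnmt3 knockdown and 68.4% after Tet1 and Tet2 knockdown, against 90.2% in control. Position 89780659 read 12.2% after Dnmt1 knockdown, 73.5% after Dnmt3a, 82.8% after Dnmt3b, 76.6% after the double Dnmt3 knockdown and 73.7% after Tet1 and Tet2 knockdown, against 90.2% in control. Control was the highest library at both, also above Tet1 and Tet2. Minus-strand cytosines 2.73 and 2.92 kb past the window were listed in 3 libraries. Position 89780725 read 84.6% after Dnmt3a and 75% after Dnmt3b knockdown, against 100% in control. Position 89780919 read 66.7% after Dnmt3a and 84.6% after Dnmt3b knockdown, against 76.5% in control, so there Dnmt3b was the highest of the 3. The plus-strand pair differed from control by -19.2 ± 3.75 points for Tet1 and Tet2 and by -21.1 ± 6.22 points for Dnmt3a (SD over 2 cytosines). In each of these libraries 1 of 2 cytosines was lower by at least 20 points. Of the 57525 autosomal cytosines with a median over the 6 libraries from 20 to 80% (intermediate cytosines, the class of both), 1.50% were lower by that much for Tet1 and Tet2 and 31.6% for Dnmt3a. That median includes the knockdown libraries compared here, and both cytosines read 90.2% in control. Among high cytosines 0.420% were lower for Tet1 and Tet2 and 3.57% for Dnmt3a. The pair lay below control in the Tet1 and Tet2 library, as did the window's own cytosine, and the control library is common to both.

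On the Meg3 side, 4 cytosines listed in all 6 libraries lay 2.12 to 2.64 kb past the high end of the promoter window (positions 110784119 to 110784644), in the direction in which Meg3 is transcribed. By their median over the 6 libraries all 4 were intermediate, and in control they ran from 56.8% to 82.4%. Their mean was 24.4% ± 17.9 after Dnmt1 knockdown, 52.1% ± 4.77 after Dnmt3a, 67.5% ± 15.4 after Dnmt3b, 54.8% ± 9.31 after the double Dnmt3 knockdown and 78.3% ± 7.75 after Tet1 and Tet2 knockdown, against 68.0% ± 10.6 in control (SD over 4 cytosines). The Dnmt1 library was lower by at least 20 points at 4 of 4, the Dnmt3a library at 2 and the double knockdown at 1, where 96.9%, 31.6% and 18.6% of intermediate cytosines were. Mean differences were -43.6 ± 11.7 points for Dnmt1, -15.9 ± 10.7 for Dnmt3a and 10.3 ± 6.03 for Tet1 and Tet2. Intermediate cytosines across the autosomes differed by medians of -56.2, -15.0 and 5.2 points in these libraries, in that order.

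After Dnmt1 knockdown these 4 did not move alike. Positions 110784119 and 110784401 read 8.2% and 9.6% in that library, against 56.8% and 66.0% in control. Positions 110784610 and 110784644, both on the minus strand and 34 bp apart, read 42.1% and 37.5% after Dnmt1 knockdown, against 82.4% and 66.7% in control. The second pair was picked by its high level in the Dnmt1 library, so its standing above the first there is no separate result. The same choice bears on its place against the percentiles below. In that library the strands of 1035 intermediate CpGs had an SD of 15.0 points between them. The 90th percentile of intermediate cytosines, the class of these 4, was 20.3% there, and that of high cytosines was 36.4%. Further on, a cluster of 7 cytosines at positions 110787886 to 110788037, 5.89 kb past the window, averaged 13.9% ± 12.7 after Dnmt1 knockdown and 85.2% ± 7.63 in control (SD over 7 cytosines). In the Dnmt1 library its plus-strand cytosines read 31.9%, 27.8% and 20.8%. Its minus-strand cytosines read 5.6%, 5.6%, 5.6% and 0.0% in that library, so the mean describes neither strand of the cluster. There all 7 were lower by at least 20 points, as were 96.9% of intermediate and 99.0% of high cytosines across the autosomes.

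**Figure D3:**
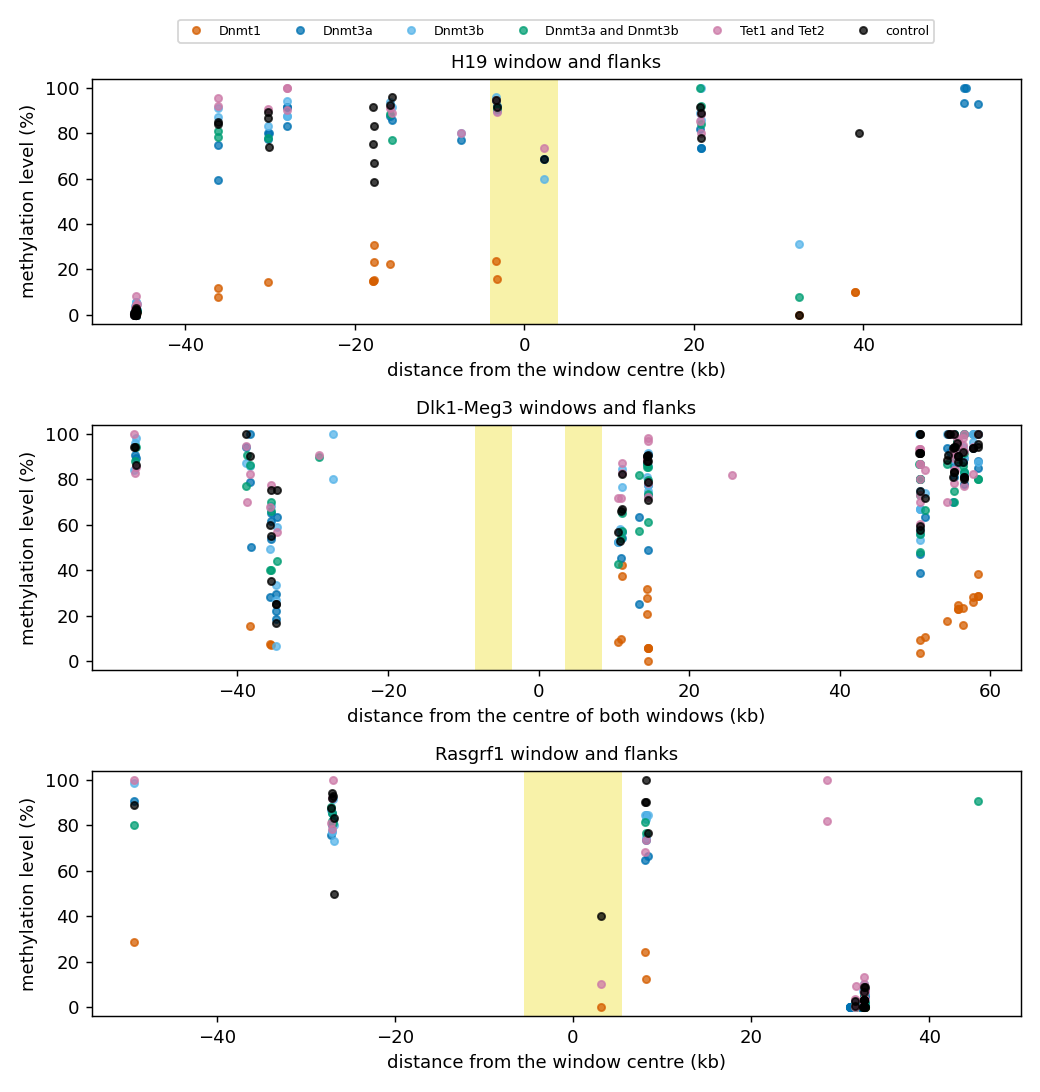
Methylation level (%, vertical axes) of every listed cytosine against distance in kb from the window centre (horizontal axes), with the windows shaded and 50 kb of flank on either side; each colour is 1 library, in the legend's order. Both Dlk1-Meg3 windows are empty, the H19 window holds 3 positions and the Rasgrf1 window 1.

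The flanks of 50 kb held both methylated and unmethylated sequence. Around H19, 22 flanking cytosines listed in all 6 libraries had a median of 0% after Dnmt1 knockdown and 1.15% in control, since 17 of them formed clusters 42.0 and 41.8 kb below the window that averaged 0.588% and 1.56% in control. The flanking position nearest to the H19 window, 149757546, was listed in 3 libraries and read 76.9% after Dnmt3a, 80% after Dnmt3b and 80% after Tet1 and Tet2 knockdown. Around the Dlk1-Meg3 windows, 23 flanking cytosines had a median of 15.2% after Dnmt1 knockdown and 87.5% in control, and all 23 were lower by at least 20 points. In the same library 4 of the 22 around H19 and 3 of 9 around Rasgrf1 were lower by that much, where 31.8% of all cytosines were, and 96.9% of intermediate and 99.0% of high ones. The remaining ones around H19 and Rasgrf1 read at most 2.8% and 8.8% in control, so they could not fall by 20 points. Near Rasgrf1, 4 cytosines at positions 89805228 to 89805255, 27.2 kb past the window, averaged 0% after Dnmt1 knockdown and 4.40% ± 5.08 in control. The RefSeq promoter of Rasgrf1 (300 bases) could not be placed on the listed contexts. It holds 0 CCGG, so position 89805255, with the context CCGGC, lies outside that sequence. Whether the others lie in it was not settled.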

How the data were processed

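RRBS libraries of 6 E14 embryonic stem cell samples were used, 1 per group. Bismark 0.10.1, CASAVA 1.8 and mm9 appear in the submitters' processing notes without their roles. For each cytosine the authors deposited a methylation fraction (0 to 1, given to 3 decimals). Counts and coverage are not in the files, and the sources used here state no coverage minimum, duplicate handling or trimming. The files list 445016 to 604227 cytosines each, of which 67 to 135 have no level and were left out. No counting interval can be given without depth.

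Fractions were turned into percent and joined by 1-based position, strand and context (NumPy 2.4.6, pandas 2.3.3, matplotlib 3.10.9, run under Python 3.11.15). Main values used cytosines listed in all 6 libraries, and cytosines listed in fewer were compared where both libraries listed them. Calls needed a difference of 20 points. Classes (low, below 20%; high, above 80%) used the median over the 6 libraries. No test was possible with 1 library per group. The planned coverage minimum was not run, because the files hold no coverage. All 4 windows were to be named, with clusters of at least 3 cytosines at most 100 bp apart; there were 0 such clusters inside them. Promoters were placed on the files only with at least 4 matching contexts, which none of the Meg3, Rasgrf1, Igf2 and Dlk1 sequences reached. The members, lists and thresholds were chosen with earlier results of these data known.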

Additional observations from a re-analysis of the deposited data

How the results depend on the processing

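Of 103 values recomputed under the alternatives for the H19 and Rasgrf1 windows, 97 were unchanged or moved by less than the SD over cytosines and 6 moved further. Many of the 97 could not have moved, because the alternative returns the same cytosines or the same mean by construction. They are no measure of robustness. The 6 all come from adding the upstream H19 cytosine, by using every cytosine a library or pair of libraries lists. The H19 window then averaged 85.2% for Dnmt3a, 81.8% for Dnmt3b and 85.7% for Tet1 and Tet2, against 85.1% in control. The mean difference became -3.33 points for Dnmt3b. For Tet1 and Tet2 it became 0.57 points, which changes its sign from -1.40. Both are smaller than the strand SD of 9.30 points at high CpGs of control. Thresholds of 10 and 30 points, merged strands and the wider set of cytosines changed no count of calls in the H19 window, and the 2 thresholds none in the Rasgrf1 window. Merged strands, the plus strand alone and medians return the main H19 mean by construction, since the main set is 2 plus-strand cytosines of different CpGs. Merged strands cannot change its counts of calls either. Leaving out MspI sites keeps 1 of the 2, which always lies within that SD of their mean. None of these alternatives could therefore move a mean of the H19 window past that SD. With cytosines listed in all 6 libraries the H19 window has none on the minus strand, and the Rasgrf1 window has none at all. Leaving out MspI sites empties the Rasgrf1 window. A gap of 300 bp gave 0 clusters in the windows. No replicate could be left out. No paired analysis was possible because each group has 1 library. Without coverage, the precision of the 4 levels is unknown.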
